A study of Mus musculus with 16 samples.

Results

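The TCRα repertoires of Vα3.2+ CD8 single positive (SP) thymocytes from Themis-/- mice were set beside those from Themis+/+ mice, to ask whether the sorted population is built from different V and J segments, junctions or clone sizes when Themis is missing. Of the 16 libraries of the study, 4 hold these cells by their labels, 2 of each genotype, and all 4 are described here. The mice were on the C57BL/6 background and every one carried a Foxp3-GFP reporter: the genotypes are given as Themis+/+Foxp3-GFP and Themis-/-Foxp3-GFP, and the deletion is germline, so that all cells of the animal lacked Themis and not only thymocytes. The other 12 libraries are Vα3.2+ CD8 T cells sorted from lymph nodes (LN), and all CD8 T cells of LN and thymus. The series' design text assigns the libraries of a group to individual mice, while the methods describe lymph nodes of several mice being combined before sorting and a legend speaks of separate experiments; none says which libraries, if any, came from the same animal, and mouse ages and cell numbers of the Vα3.2+ sorts were not found in the labels or methods. If a library is not from its own mouse, the p-values below measure only the spread between 2 libraries. A sorted population was named Va3,2 in one label and Va2.3 in another; it is called Vα3.2+ here, as in the titles. TCRα tables do not measure Themis, so the genotypes rest on the labels.

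Themis, a signalling protein made in T cells and their precursors, takes part in thymocyte development downstream of the TCR. The α chain of the TCR is assembled in CD4+CD8+ double positive thymocytes by joining a V segment to a J segment. Early joins use J segments near the V segments, and later rounds on the same chromosome move to J segments farther away. Bases are trimmed from both ends, hairpin opening can leave short palindromic (P) bases, and terminal transferase adds N bases, so the junction, which forms the middle of the CDR3 loop, differs between clones. Vα3.2 is the product of TRAV9N-3, a member of the TRAV9 (Vα3) family, and is found more often on CD8 than on CD4 T cells.

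The germline ends of the TRAV9 segments found in the sort set the first residues of the CDR3s and are given first, from the conserved Cys codon to the last annotated base (GENCODE M21 annotation of GRCm38, coding strand, 5′ to 3′). Capitals mark bases that differ from TRAV9N-3.
TRAV9N-3: tgtgctgtgagca
TRAV9D-3: tgtgctgtgagca
TRAV9N-4: tgtgctCtgagca
TRAV9D-4: tgtgctCtgagca
TRAV9-4: tgtgctgtgagcG
TRAV9-2: tgtgTtTtgagcG
All lie on the plus strand of chromosome 14. TRAV9N-3 spans chr14:53231433-53232102, TRAV9D-3 chr14:52920443-52921112 and TRAV9N-4 chr14:53294341-53295030, while TRAV9-4, at chr14:53676141-53676630, is the TRAV9 segment nearest to the J segments. TRAV9N-3 and TRAV9D-3 have the same 13 bases here, and TRAV9N-4 and TRAV9D-4 share theirs, so a CDR3 alone cannot separate the members of either pair. Untrimmed, TRAV9N-3 gives the residues Cys-Ala-Val-Ser and 1 further base, TRAV9N-4 gives Cys-Ala-Leu-Ser, and codon 5 is completed by the junction or by the J segment.

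Themis+/+ libraries 1 and 2 held 11674 and 18191 reads, and Themis-/- libraries 1 and 2 held 10338 and 22940. Distinct CDR3 nucleotide sequences, each counted as a clone, numbered 84 and 369 in Themis+/+ and 86 and 533 in Themis-/-. The 2 libraries numbered 1 thus held fewer clones than either library numbered 2, whichever the genotype, and this split recurs below. Clones read a single time were 3.56% to 5.95% of the clones of a library. The reads are PCR products without molecular identifiers, so every interval and floor given here covers counting error only. A segment with 0 reads could make up to 0.0131% to 0.029% of the reads of a library (3 reads of the total). How many cells or RNA molecules stand behind a library cannot be told apart from these tables, and a clone with many reads may be many cells or cells with more TCRα RNA.

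The sort was checked against V segments. TRAV9 segments took 98.8% to 99.8% of the reads in the 4 sorted libraries, against 2.03% to 2.33% in the 4 libraries of all SP CD8 thymocytes. The authors state that their anti-Vα3.2 antibody detects TRAV9N-3 and no other TRAV9 member, so the family share does not measure the segment sorted for. TRAV9N-3 merged with TRAV9D-3 took 83.1% and 53.2% of the reads in Themis+/+ and 88.5% and 41.2% in Themis-/-. Why other TRAV9 segments were read was not tested. V segments outside the TRAV9 family took 0.214% and 1.17% of the reads in Themis+/+ and 0.716% and 0.218% in Themis-/-. The joins that mark NKT cells (TRAV11 or TRAV11D with TRAJ18) and MAIT cells (TRAV1 with TRAJ33), and the TRDV segments of γδ T cells, had 0 reads in all 4 sorted libraries.

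With ties between TRAV9N-3 and TRAV9D-3 counted as TRAV9N-3, most reads of the sort carried TRAV9N-3 in 2 of the 4 libraries. The share was lower in the others, which were library 2 of each genotype. TRAV9N-3, the Vα3.2 segment itself, took 74.7% and 47.5% of the reads in Themis+/+ libraries 1 and 2, and 83.04% and 34.0% in Themis-/- libraries 1 and 2. The mean was 61.1% ± 19.2 (SD, n = 2) in Themis+/+ and 58.5% ± 34.7 (SD, n = 2) in Themis-/-. The genotypes overlapped, with a difference of -2.60 percentage points (exact permutation test, two-sided, p = 1.0). With 2 libraries against 2, the smallest p that this test can give is 0.333. By distinct sequences, TRAV9N-3 had 69 and 249 in Themis+/+ and 76 and 299 in Themis-/-. As the sole best hit, TRAV9N-3 took 57.6% and 27.4% of the reads in Themis+/+ and 61.7% and 20.9% in Themis-/-. Merged with TRAV9D-3, the shares were 83.1% and 53.2% in Themis+/+ and 88.5% and 41.2% in Themis-/-. The size of the share thus depended on the V call, while libraries 2 lay below libraries 1 in each count of reads.

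TRAV9-4, the TRAV9 segment nearest to the J segments, was high in the 2 libraries where TRAV9N-3 was low. TRAV9-4 took 6.04% and 28.9% of the reads in Themis+/+ libraries 1 and 2, and 0% and 38.7% in Themis-/- libraries 1 and 2. In Themis+/+ library 1 this was 1 clone of 705 reads, while library 2 held 43 TRAV9-4 sequences and Themis-/- library 2 held 104. Both libraries numbered 2 were thus above both numbered 1, and the genotypes overlapped. The same order was present in the sorted LN libraries, where TRAV9-4 took 1.13% and 19.9% of the reads in Themis+/+ and 1.56% and 33.7% in Themis-/- (libraries 1 and 2). In all SP CD8 thymocytes, TRAV9-4 took 12.1% and 19.2% of the TRAV9 reads in Themis+/+ and 13.8% and 7.40% in Themis-/-, with no such split. What the library number stands for is not stated by the labels; with the number as a block edgeR called 0 V segments, 0 J segments by reads and 0 by sequences.

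TRAV9N-4, TRAV9D-4 and TRAV9-2 also had a larger share of the sequences in libraries 2 than in libraries 1 of both genotypes, while the share of TRAV9D-3 changed little. TRAV9N-4 took 10.6% and 13.2% of the reads in Themis+/+ and 10.7% and 15.9% in Themis-/-, but in libraries 1 this was 2 clones and 1 clone, against 22 and 41 in libraries 2. TRAV9D-3 took 8.37% and 5.63% of the reads in Themis+/+ and 5.49% and 7.15% in Themis-/-. Of the sequences it took 8.33% and 8.67%, then 8.14% and 9.01%. TRAV9D-4 and TRAV9-2 were read in libraries 2 only, TRAV9D-4 at 3.01% in Themis+/+ and 2.61% in Themis-/- and TRAV9-2 at 0.511% and 1.09%. Together, 33 V segments were seen in any of the 4 libraries and 4 in all of them.

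edgeR called 0 of 7 V segments tested (0.0%) at an adjusted p under 0.05, with 0 at an unadjusted p under 0.05 and 0 called by DESeq2. For TRAV9N-3 the edgeR log2 fold change, Themis-/- over Themis+/+, was -0.66 (SE 0.51, adjusted p = 0.981), against -0.063 without TMM scaling and -0.072 by DESeq2, and for TRAV9-4 it was -0.09 with a SE of 3.59. Among all 33 V segments seen, 0 had both Themis-/- libraries above both Themis+/+ libraries (0.0%) and 1 had both below (3.03%). That 1 was TRAV1, the V segment of MAIT cells, with 4 and 3 reads in Themis+/+ and 0 in Themis-/-, none of them with TRAJ33; it was named because it was the sole segment to do so, after its values were seen.

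**Figure D1:**
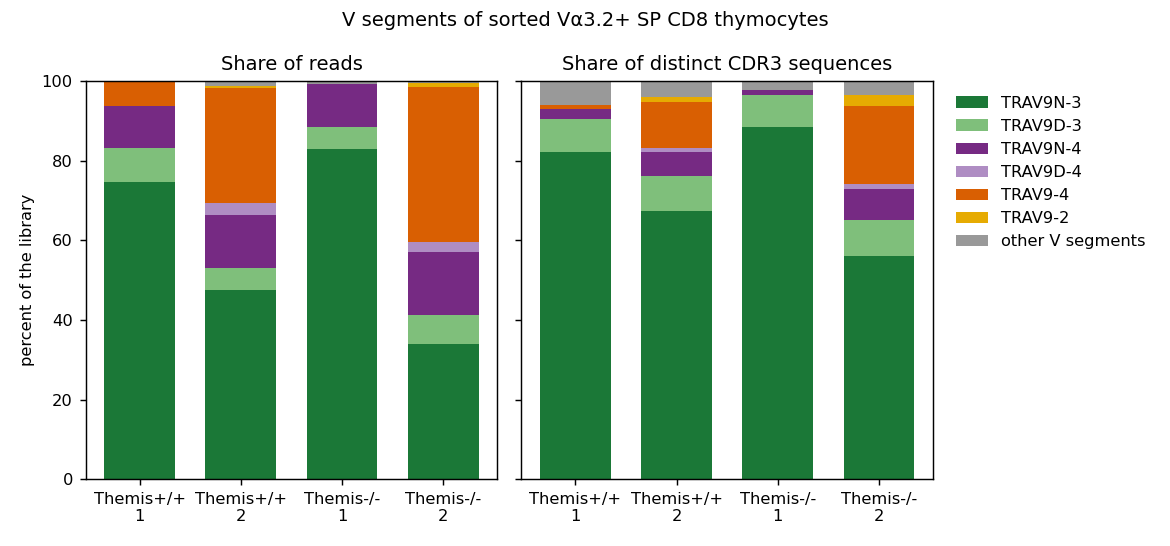
Stacked bars give the percent of the reads (left) and of the distinct CDR3 sequences (right) of each of the 4 sorted libraries that carried each V segment. TRAV9N-3 (dark green) fills most of the bars of libraries 1 of both genotypes, and TRAV9-4 (orange) reaches 28.9% and 38.7% of the reads in Themis+/+ library 2 and Themis-/- library 2.

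J segment use covered the whole J array in both genotypes. Of the 43 J segments seen in any library, 29 and 43 were seen in Themis+/+ libraries 1 and 2 and 29 and 41 in Themis-/- libraries 1 and 2, and 23 were seen in all 4. On the reads, edgeR called 0 of 41 J segments tested (0.0%), with 0 at an unadjusted p under 0.05 and 0 called by DESeq2. On the numbers of distinct sequences, edgeR called 0 of 36 (0.0%), with 1 at an unadjusted p under 0.05 and 0 called by DESeq2. That 1 was TRAJ9 (log2 fold change -0.81, SE 0.40, adjusted p = 0.979), whose libraries overlapped between genotypes. Of 43 J segments, 4 had both Themis-/- libraries above both Themis+/+ libraries by share of reads (9.30%) and 3 had both below (6.98%). By share of sequences these counts were 8 (18.6%) and 4 (9.30%).

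Of the 5 J segments with the highest mean share of reads, the genotypes overlapped for 4, and TRAJ15 was below in both Themis-/- libraries. TRAJ31 took 3.36% and 14.9% of the reads in Themis+/+ and 3.60% and 13.4% in Themis-/-. In both libraries 2 most TRAJ31 reads came with TRAV9-4 (72.0% in Themis+/+ and 71.5% in Themis-/-, from 15 and 22 sequences), and within TRAV9N-3 and TRAV9D-3 reads TRAJ31 took 4.04% and 4.93% in Themis+/+ against 4.06% and 0.318% in Themis-/-. TRAJ22 took 2.24% and 5.62% in Themis+/+ and 15.8% and 4.35% in Themis-/-, and a single clone held 68.2% of its reads in Themis-/- library 1. TRAJ9 took 10.7% and 7.23% in Themis+/+ and 7.58% and 4.30% in Themis-/-. TRAJ4 took 8.46% and 3.38% in Themis+/+, where 1 clone held 95.4% of its reads in library 1, and 5.34% and 4.30% in Themis-/-. TRAJ15 took 7.08% and 5.64% in Themis+/+ and 2.99% and 5.10% in Themis-/-. The edgeR log2 fold changes of TRAJ31, TRAJ22, TRAJ9, TRAJ4 and TRAJ15 were 0.22, 1.42, -0.28, 0.13 and -0.22, each with an adjusted p of 0.959.

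TRAJ47 had the smallest p of the J segments named in the test of reads, and it was carried by few clones. Its share of reads was 0% and 0.203% in Themis+/+, where it was 1 sequence in library 2, and 4.42% and 2.40% in Themis-/-, where it was 2 and 8 sequences. Both Themis-/- libraries lay above both Themis+/+ libraries, and the edgeR log2 fold change was 5.06 (SE 2.60, unadjusted p = 0.0548, adjusted p = 0.959). Without Themis+/+ library 2 it was 12.08 with an adjusted p of 0.0196, the sole J segment called in any of the alternatives, but the group was then left with 1 library at 0 reads, and such a fitted fold depends on the prior count. On sequence numbers the log2 fold change was 2.55 (SE 1.45, edgeR adjusted p = 0.979). In Themis-/- library 2, 95.6% of the TRAJ47 reads came with TRAV9-4, and among TRAV9N-3 and TRAV9D-3 sequences TRAJ47 numbered 0 and 1 in Themis+/+ and 2 and 1 in Themis-/-.

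The other J segments named because their genotypes did not overlap did not pass the tests. By reads, TRAJ49 (1.27% and 0.0165% in Themis+/+, 4.92% and 1.36% in Themis-/-) and TRAJ30 (0.942% and 1.96%, then 3.57% and 2.22%) were above in Themis-/-. TRAJ13 (6.05% and 2.48%, then 1.76% and 2.10%) and TRAJ23 (5.46% and 6.46%, then 3.49% and 3.21%) were below. By sequences, TRAJ33 (1.19% and 1.36% in Themis+/+, 2.33% and 2.44% in Themis-/-) and TRAJ40 (1.19% and 0.542%, then 2.33% and 1.501%) were above, and TRAJ2 (2.38% and 3.52%, then 2.33% and 1.88%), TRAJ4 (5.95% and 3.79%, then 2.33% and 3.56%) and TRAJ37 (2.38% and 1.36%, then 1.16% and 1.31%) were below. Their edgeR values had adjusted p of 0.959 on reads and 0.979 on sequences. Those named by sequences rested on small counts. TRAJ33 numbered 1 and 5 sequences in Themis+/+ and 2 and 13 in Themis-/-, and TRAJ40 1 and 2, then 2 and 8. TRAJ2 numbered 2 and 13, then 2 and 10, so it had 2 in library 1 of each genotype. TRAJ4 numbered 5 and 14, then 2 and 19, and TRAJ37 2 and 5, then 1 and 7.

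Grouped by place in the J array, the sort was weighted to the V-distal part in both genotypes. TRAJ2 to TRAJ9, the V-distal end, held 32.1% and 23.3% of the sequences in Themis+/+ and 23.3% and 20.8% in Themis-/-. TRAJ48 to TRAJ61, the V-proximal end, held 5.95% and 4.07% in Themis+/+ and 6.98% and 6.94% in Themis-/-. Both Themis-/- values lay above both Themis+/+ values, by a mean of 1.95 percentage points (exact permutation test, two-sided, p = 0.333, adjusted p = 0.833 over 10 measures), while the 95% Wilson intervals, from 2.57% to 13.2% and 2.48% to 6.60% in Themis+/+ and from 3.24% to 14.4% and 5.08% to 9.42% in Themis-/-, overlapped. Weighted by reads the shares were 1.31% and 6.43% in Themis+/+ and 8.52% and 9.56% in Themis-/-, a difference of 5.17 points, and with TRAV9N-3 alone the difference was 0.602 (exact permutation test, p = 1.0). The share moved with the V segment. In libraries 2, 16.3% (Themis+/+) and 21.2% (Themis-/-) of TRAV9-4 sequences had a V-proximal J, against 1.78% and 2.88% of TRAV9N-3 and TRAV9D-3 sequences. Within TRAV9N-3 and TRAV9D-3 the shares were 5.26% and 1.78% in Themis+/+ and 6.02% and 2.88% in Themis-/-, and the genotypes overlapped. In all SP CD8 thymocytes, V segments outside TRAV9 had a V-proximal J in 14.4% and 22.1% of sequences in Themis+/+ and 10.8% and 11.2% in Themis-/-.

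**Figure D2:**
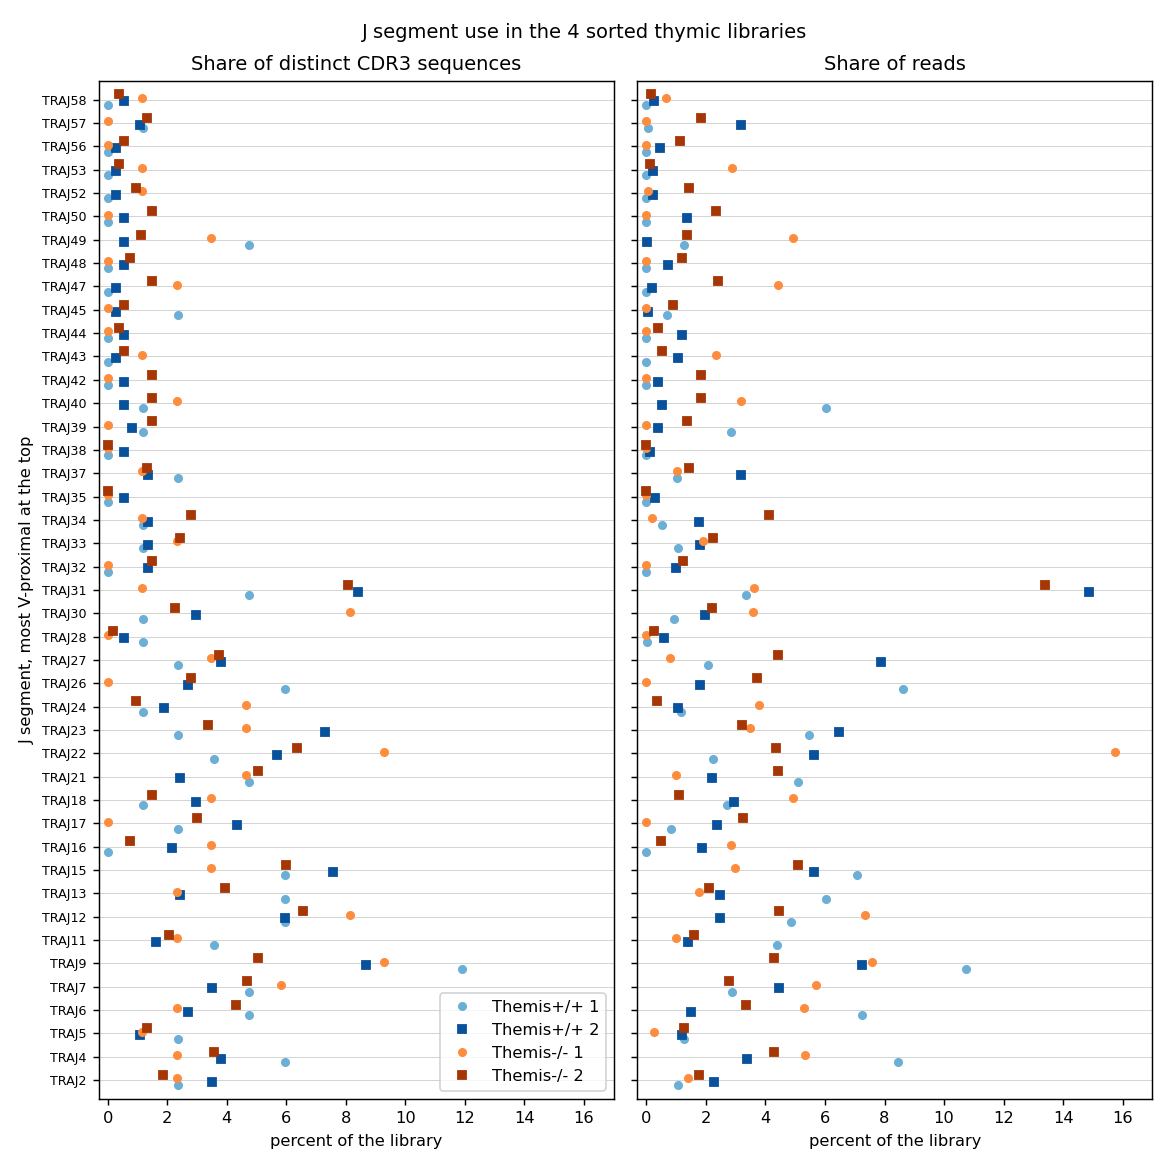
Each row is a J segment, ordered along the J array with the most V-proximal at the top, and points give its percent of the distinct sequences (left) and of the reads (right) in each of the 4 sorted libraries. The points of a genotype are often as far apart as those of different genotypes: TRAJ31 reads lie near 3% to 4% in libraries 1 and at 13.4% and 14.9% in libraries 2.

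N additions were counted in 2 ways that gave different answers, so both are shown. By the reference points that MiXCR wrote into the tables, N additions are the bases between the last V base and the first J base, without P bases. The V reference they use stopped short of the annotated end by 2 bases for TRAV9-4 and TRAV9D-3 and by 10 for TRAV9-2, so germline bases count as N additions there and values are not comparable between V segments. TRAV9-4 had 1 and 43 sequences in Themis+/+ and 0 and 104 in Themis-/-, and TRAV9-2 had 0 and 4, then 0 and 15. Over all V segments, the mean number of N additions was 1.45 and 2.07 bases in Themis+/+ libraries 1 and 2. In Themis-/- libraries 1 and 2 it was 2.35 and 2.25 (genotype means 1.76 ± 0.437 and 2.30 ± 0.0702, SD, n = 2). Both Themis-/- libraries were above both Themis+/+ libraries, by 0.538 bases (exact permutation test, two-sided, p = 0.333, adjusted p = 0.833 over 10 measures). The 2 Themis+/+ libraries differed by 0.618 bases, more than the genotypes. Sequences without N additions were 47.6% and 36.0% in Themis+/+ and 32.6% and 34.3% in Themis-/-, a difference of -8.39 percentage points with the same exact p. The 95% Wilson interval was 37.3% to 58.2% in Themis+/+ library 1 and 31.3% to 41.1% in library 2, and 23.6% to 43.0% and 30.4% to 38.5% in Themis-/-.

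Matched to the annotated germline V and J ends, with P bases counted as inserted, the mean was 3.04 and 3.35 bases in Themis+/+ and 3.16 and 3.14 in Themis-/-. The difference was then -0.0418 bases (exact permutation test, two-sided, p = 1.0), and sequences with 0 inserted bases were 16.7% and 9.49% against 12.9% and 11.6%. The median was 3 inserted bases in each of the 4 libraries. The V segment counted too: among TRAV9N-3 and TRAV9D-3 sequences, reference points gave a mean of 1.43 and 1.73 bases in Themis+/+ and 2.33 and 1.65 in Themis-/-, and the genotypes overlapped. The germline match among the same sequences, an alternative chosen after seeing the data, gave 2.63 and 2.90 in Themis+/+ and 3.05 and 2.93 in Themis-/-, which did not overlap (difference 0.221 bases, exact permutation test, two-sided, p = 0.333). In all SP CD8 thymocytes, the same V segments had 1.87 and 1.53 N additions in Themis+/+ and 1.78 and 1.71 in Themis-/-, over 80 to 156 sequences a library. Whether Themis-/- junctions held more N bases therefore changed with the definition and with the V segments included.

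A run of TG directly after the whole germline V end was frequent at the junctions of TRAV9N-3 and TRAV9D-3. TG is the reverse complement of the last 2 germline bases, as P bases would be, and part of the run can also come from the J segment, as in the TRAJ7 join shared by all 4 libraries. The same run after TRAV9N-4 or TRAV9D-4, and CG after TRAV9-4, complete codon 5 as follows (capitals mark the 2 added bases).
TRAV9N-3 or TRAV9D-3, codon 5 Met: tgtgctgtgagcaTG
TRAV9N-4 or TRAV9D-4, codon 5 Met: tgtgctctgagcaTG
TRAV9-4, codon 5 Ala: tgtgctgtgagcgCG
The first form began 15 of 76 TRAV9N-3 and TRAV9D-3 sequences in Themis+/+ library 1 (19.7%, 95% Wilson interval 12.3% to 30.04%) and 70 of 281 in library 2 (24.9%, 20.2% to 30.3%). In Themis-/- it began 15 of 83 (18.1%, 11.3% to 27.7%) and 82 of 347 (23.6%, 19.5% to 28.4%). The 4 intervals overlapped, and this form made up 75.0% to 97.6% of the Met residues at position 5 of these segments. The second form began 11 of 26 sequences in Themis+/+ library 2 and 13 of 48 in Themis-/- library 2. The third began 17 of 43 and 29 of 104 TRAV9-4 sequences, in the same order.

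**Figure D3:**
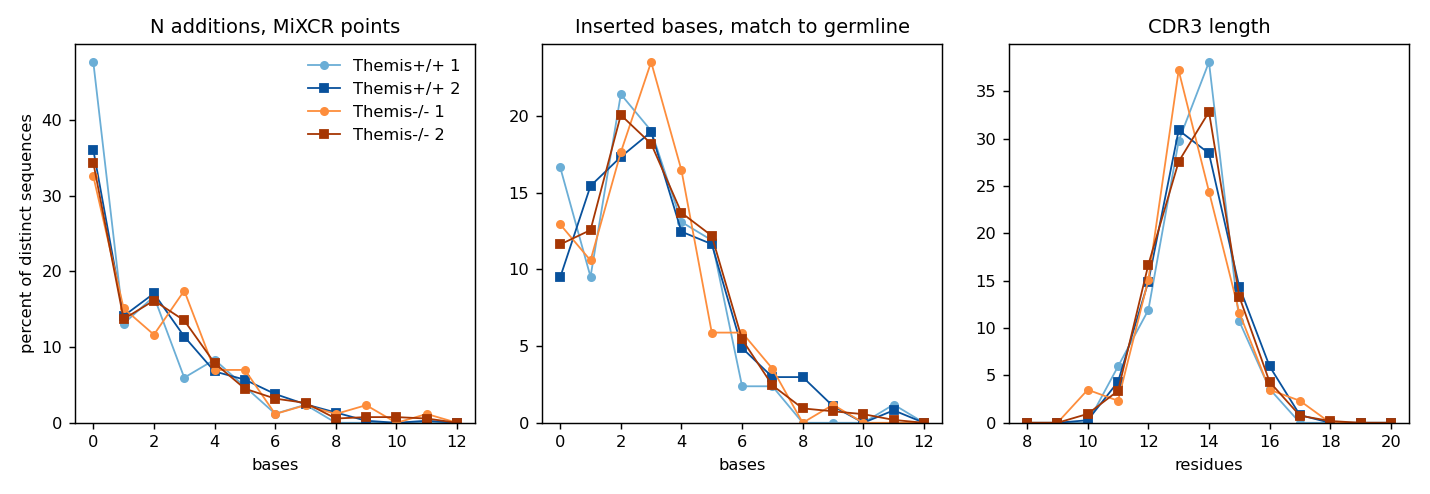
Lines give the percent of the distinct sequences of each library (vertical axes) by number of N additions from MiXCR reference points (left, bases), by inserted bases from the germline match (middle, bases) and by CDR3 length (right, residues); sequences with more than 12 bases are not drawn. At 0 N additions Themis+/+ library 1 stands at 47.6%, above the other 3 libraries at 32.6% to 36.0%, and in the germline match the lines cross.

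CDR3s of 13 and 14 residues were the most frequent in all 4 libraries. Those of 13 residues were 29.8% and 30.9% of the sequences in Themis+/+ and 37.2% and 27.6% in Themis-/-. Those of 14 residues were 38.1% and 28.5% in Themis+/+ and 24.4% and 32.8% in Themis-/-. The mean length, from the conserved Cys to the conserved Phe, was 40.4 and 40.6 bp in Themis+/+ and 40.1 and 40.5 bp in Themis-/-. The genotypes overlapped and differed by -0.196 bp (exact permutation test, two-sided, p = 0.667), against an SD of 3.40 to 4.07 bp within a library.

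The residue at position 5, the first that the junction decides in an untrimmed TRAV9N-3 chain, was most often Met in each library. Met was at position 5, counted from the conserved Cys as 1, in 25.0% and 23.8% of the sequences in Themis+/+ and 18.6% and 18.4% in Themis-/-. Both Themis-/- libraries were below both Themis+/+ libraries, while the 95% Wilson intervals, 16.97% to 35.2% and 19.8% to 28.5% in Themis+/+ and 11.8% to 28.1% and 15.3% to 21.9% in Themis-/-, overlapped. Among TRAV9N-3 and TRAV9D-3 sequences alone Met took 26.3% and 26.7% in Themis+/+ and 19.3% and 24.2% in Themis-/-. In the same segments of all SP CD8 thymocytes Met took 21.2% and 18.8% in Themis+/+ and 32.7% and 18.8% in Themis-/-, where the Themis-/- libraries were not below. Met, Ile and Leu together, large hydrophobic residues, were at position 5 in 40.5% and 33.1% in Themis+/+ and 33.7% and 28.3% in Themis-/-, and the genotypes overlapped (difference -5.74 percentage points, exact permutation test, two-sided, p = 0.667).

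Of 20 residues at position 5, 1 had both Themis-/- libraries above both Themis+/+ libraries (5.0%) and 3 had both below (15%). The 1 above was Phe, at 0% and 0.271% in Themis+/+ and 1.16% and 0.750% in Themis-/-, or 0 and 1 sequences, then 1 and 4. The 3 below were Met, Leu (5.95% and 3.79%, then 3.49% and 3.38%) and Tyr (3.57% and 2.17%, then 0% and 1.69%). Leu numbered 5 and 14 sequences, then 3 and 18, and Tyr 3 and 8, then 0 and 9. Ala, the residue that TRAV9-4 with CG encodes, was at 5.95% and 10.8% in Themis+/+ and 3.49% and 13.7% in Themis-/-, high in both libraries 2, and among TRAV9N-3 and TRAV9D-3 sequences it was at 3.61% to 6.58%. Ile (9.52% and 5.42%, then 11.6% and 6.57%) was higher in libraries 1 of either genotype, and Gly, Asn, Pro, Arg, Ser and Thr overlapped between genotypes. The acidic residues Asp and Glu were rare at this position, at 3.57% and 4.61% in Themis+/+ and 4.65% and 5.25% in Themis-/- (difference 0.863 percentage points, exact permutation test, two-sided, p = 0.333, adjusted p = 0.833 over 10 measures). Asp numbered 3 and 10 sequences in Themis+/+ and 4 and 19 in Themis-/-, and Glu 0 and 7, then 0 and 9. Among TRAV9N-3 and TRAV9D-3 sequences they were at 1.32% and 2.85% in Themis+/+ and 4.82% and 4.03% in Themis-/-, a difference of 2.35 points. In all SP CD8 thymocytes they were at 27.1% to 29.3% of the position 5 residues of chains outside TRAV9 and at 3.62% to 7.50% of TRAV9N-3 and TRAV9D-3 chains.

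Positions 3 and 4 kept the germline residues in most sequences of all 4 libraries. Val was at position 3 in 80.7% to 90.5% of the sequences, and Ser at position 4 in 64.0% to 69.9%, both as the TRAV9N-3 germline gives them. Arg followed Ser at position 4 with 10.6% to 14.3%. The net charge of a CDR3, Lys and Arg less Asp and Glu, averaged 0.774 and 0.943 in Themis+/+ and 0.872 and 0.824 in Themis-/-. The summed Kyte-Doolittle hydropathicity of 14-residue CDR3s, a scale on which hydrophobic residues are positive, averaged 4.77 and 6.68 in Themis+/+ and 4.98 and 6.29 in Themis-/- (exact permutation test, two-sided, p = 1.0). Here too libraries 1 were below libraries 2 in both genotypes. Of the 10 repertoire measures compared, 4 had genotypes that did not overlap (40.0%). These were V-proximal J, Asp or Glu at position 5, and the mean number of N additions and the share of sequences without them. The last 2 are forms of the same count by MiXCR reference points, and by the germline match over all V segments both overlapped. None passed the test, with adjusted p of 0.833 or more.

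**Figure D4:**
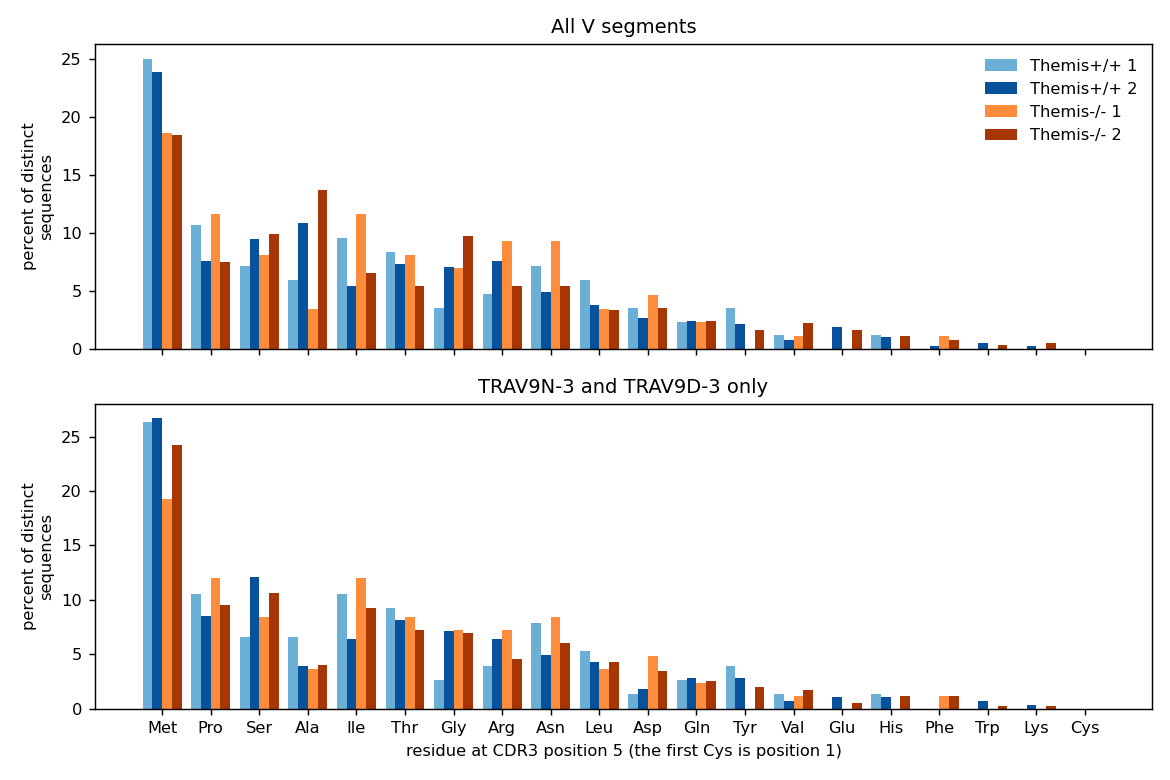
Bars give the percent of distinct sequences with each residue at CDR3 position 5 in the 4 sorted libraries, for all V segments (top) and for TRAV9N-3 and TRAV9D-3 only (bottom). Met is the tallest group in both panels, with 18.4% to 25.0% of all sequences, and the Ala bars of libraries 2 stand at 10.8% and 13.7% with all V segments and at 3.91% and 4.03% in the lower panel.

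Clone sizes followed the library number in both genotypes. The largest clone held 8.08% and 2.28% of the reads in Themis+/+ libraries 1 and 2 and 10.7% and 2.56% in Themis-/- libraries 1 and 2. The 10 largest held 38.8% and 14.97% in Themis+/+ and 39.4% and 10.5% in Themis-/-. Libraries 1 of the 2 genotypes were thus nearly alike, and so the difference between genotypes, -1.93 percentage points, was small beside that between libraries of a genotype (exact permutation test, two-sided, p = 1.0). In libraries 1, 15 clones of either genotype held 50% of the reads, against 61 clones in Themis+/+ library 2 and 99 in Themis-/- library 2. The effective number of clones, the exponential of the Shannon entropy, was 48.3 and 219 in Themis+/+ and 48.7 and 336 in Themis-/- (log2 ratio of the means 0.53, exact permutation test, two-sided, p = 0.667). Drawn down to 10338 reads, the libraries kept 83.4 and 357 clones in Themis+/+ and 86.0 and 510 in Themis-/-; libraries 2 kept more clones than libraries 1 at equal reads. The Gini coefficient, 0 for equal clones, was 0.560 and 0.547 in Themis+/+ and 0.560 and 0.513 in Themis-/-.

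Clones of TRAV9-4 and TRAV9N-4 were larger than those of TRAV9N-3 in the libraries that held many of them. In Themis+/+ library 2 the median clone had 24 reads with TRAV9N-3, 101 with TRAV9-4 and 87 with TRAV9N-4. In Themis-/- library 2 the medians were 19, 74.5 and 77. In libraries 1 the TRAV9N-3 medians were 93 in Themis+/+ and 88.5 in Themis-/-. TRAV9N-3 thus had the smallest median of the 3 segments in both libraries 2.

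The 3 largest clones of each library are printed to show what heads each repertoire, with bases of neither germline end (germline match) in capitals.
Themis+/+ library 1, TRAV9N-4 with TRAJ4: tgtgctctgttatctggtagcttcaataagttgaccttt
Themis+/+ library 1, TRAV9-4 with TRAJ40: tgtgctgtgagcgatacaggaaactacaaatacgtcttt
Themis+/+ library 1, TRAV9N-3 with TRAJ15: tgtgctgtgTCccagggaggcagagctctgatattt
Themis+/+ library 2, TRAV9-4 with TRAJ27: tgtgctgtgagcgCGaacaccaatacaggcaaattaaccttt
Themis+/+ library 2, TRAV9D-4 with TRAJ7: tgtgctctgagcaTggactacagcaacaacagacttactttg
Themis+/+ library 2, TRAV9-4 with TRAJ37: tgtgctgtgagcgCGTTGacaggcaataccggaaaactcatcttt
Themis-/- library 1, TRAV9N-4 with TRAJ22: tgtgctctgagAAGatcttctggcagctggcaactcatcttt
Themis-/- library 1, TRAV9N-3 with TRAJ6: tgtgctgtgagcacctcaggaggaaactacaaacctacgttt
Themis-/- library 1, TRAV9N-3 with TRAJ31: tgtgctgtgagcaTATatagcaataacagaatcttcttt
Themis-/- library 2, TRAV9-4 with TRAJ31: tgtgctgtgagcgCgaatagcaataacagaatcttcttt
Themis-/- library 2, TRAV9N-4 with TRAJ4: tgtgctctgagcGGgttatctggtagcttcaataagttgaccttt
Themis-/- library 2, TRAV9-4 with TRAJ50: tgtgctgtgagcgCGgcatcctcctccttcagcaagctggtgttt
The clones of Themis+/+ library 1 had 943, 705 and 432 reads and those of library 2 had 415, 313 and 293. In Themis-/- they had 1111, 376 and 372 reads in library 1 and 587, 244 and 221 in library 2. TRAV9N-3, the segment the sort was made for, headed none of the 4 libraries: the largest clone carried TRAV9N-4 in both libraries 1 and TRAV9-4 in both libraries 2. None of these 12 nucleotide sequences was found in another of the 4 libraries.

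**Figure D5:**
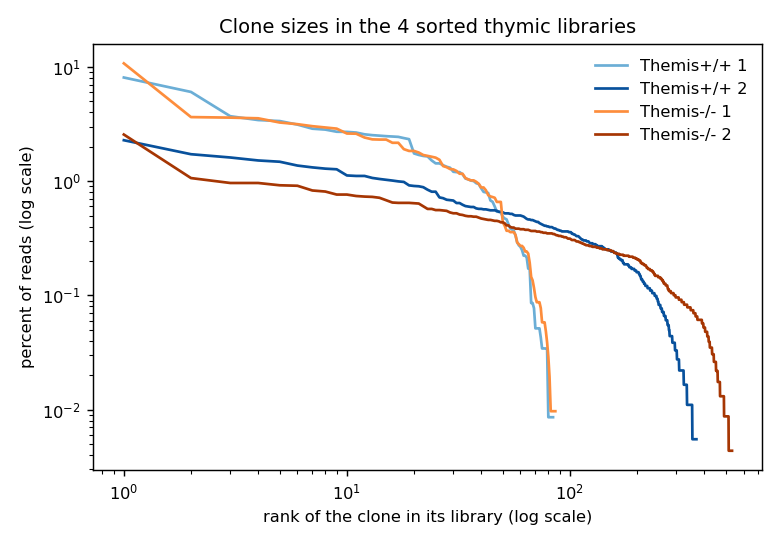
Lines give the percent of reads of each clone (log scale) against its rank in its library (log scale) for the 4 sorted libraries. The 2 libraries numbered 1 run together and end at 84 and 86 clones, while libraries 2 start lower, at 2.28% and 2.56%, and end at 369 and 533.

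Most clones were private to a library. Of 996 distinct nucleotide sequences in the 4 libraries, 936 (94.0%) were in 1 library and 60 in 2 or more. The shared sequences had fewer inserted bases by the germline match, with a mean of 1.62 against 3.45, and 31.7% of them had none, against 8.02% of the private ones. Met was at position 5 in 38.3% of shared and 18.2% of private sequences, and 96.7% and 70.2% carried TRAV9N-3 or TRAV9D-3. These are descriptions of sequences, which are not replicates, and no test was made.

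Counts of shared sequences did not separate by genotype. Libraries 1 and 2 of Themis+/+ shared 14 sequences, which were 16.7% of library 1 and 3.79% of library 2, and those of Themis-/- shared 12, which were 13.95% and 2.25%. Between genotypes, the libraries 2 shared 44, which were 11.9% of Themis+/+ and 8.26% of Themis-/-. The libraries 1 shared 5, which were 5.95% and 5.81%. The number 1 library of Themis+/+ shared 9 with Themis-/- library 2 (10.7% and 1.69%), and Themis+/+ library 2 shared 11 with Themis-/- library 1 (2.98% and 12.8%).

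The 3 CDR3 amino acid sequences present in all 4 libraries each had the same nucleotide sequence throughout, and show what is common to both genotypes (capitals mark bases of neither germline end).
TRAV9N-3 or TRAV9D-3 with TRAJ7: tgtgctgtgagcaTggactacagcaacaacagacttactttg
TRAV9N-3 or TRAV9D-3 with TRAJ9: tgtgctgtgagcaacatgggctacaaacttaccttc
TRAV9N-3 or TRAV9D-3 with TRAJ12: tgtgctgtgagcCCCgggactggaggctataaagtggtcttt
The TRAJ7 join, with Met at position 5, had 1 and 44 reads in Themis+/+ and 15 and 86 in Themis-/-. The TRAJ9 join, with 0 inserted bases, had 55 and 165 reads and then 110 and 22, and its amino acid sequence was found in all 16 libraries of the study. The TRAJ12 join, with 3 inserted bases, had 153 and 18 reads in Themis+/+ and 6 and 106 in Themis-/-. None of the 3 lay on one side of the other genotype in both of its libraries.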

How the data were processed

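The authors made cDNA by template switching from sorted cells, amplified TCRα in 2 rounds of PCR with a constant-region primer, sequenced it on a MiSeq and called clonotypes with MiXCR; no molecular identifiers were used and no tool version was found in the labels or methods except CASAVA 1.4, which the submitters' processing notes list with the build mm9. Per CDR3 nucleotide sequence the authors deposited the read count, unnormalized, and each sequence's fraction of the reads of its library, which equals its count over the library total. Clone numbers absent from the tables (4 and 26 in Themis+/+, 4 and 47 in Themis-/-) show that clones had been removed before deposit.

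The members and lists were chosen with earlier results of these data known. Where TRAV9N-3 and TRAV9D-3 tied as best hit, TRAV9N-3 was taken. Reads per V and J segment (at least 10 reads in at least 2 libraries) and sequences per J segment (at least 2 in at least 2 libraries) were tested with edgeR 4.0.16 (quasi-likelihood, TMM, Benjamini-Hochberg, adjusted p under 0.05). The J tests were also run on simulated counts, whose outcome is not given here. A log2 fold change of 5.06 (TRAJ47, reads) was not called, so a lack of calls does not show equal use. DESeq2 1.42.0 was a second test. The 10 repertoire measures had exact permutation tests. Inserted bases were found by ungapped extension from annotated V and J ends (+1 a match, -3 a mismatch; GENCODE M21, GRCm38). Named were V segments with 1% of the reads of any library, the 5 most read J segments, in each J test up to 3 J segments above and 3 below in Themis-/- with the smallest p whose genotypes did not overlap, J groups by place, the 3 largest clones of each library, CDR3s in all 4, and residues in 5% of the sequences of any library. Alternatives were no TMM, no filter, other V sets, weighting by reads, merging of 1-mismatch sequences 20 times rarer, all 8 sorted libraries, a replicate block and leaving out each library. Scripts ran in Python 3.11.15 (scipy 1.17.1, pandas 2.3.3, matplotlib 3.10.9, numpy 2.4.6) and R 4.3.3.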

Additional observations from a re-analysis of the deposited data

Results flagged for a closer look

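Of the 10 repertoire measures, 1 had genotypes that did not overlap in thymus or in LN and lay in opposite order there. Measures whose genotypes overlapped in either organ were not counted, whichever way their means moved. Asp or Glu at position 5 was higher in every Themis-/- than in every Themis+/+ library of the sorted thymocytes, by 0.863 percentage points. The shares were 3.57% and 4.61% in Themis+/+ and 4.65% and 5.25% in Themis-/-. Asp numbered 3 and 10 sequences in Themis+/+ and 4 and 19 in Themis-/-, and Glu 0 and 7, then 0 and 9. The nearest libraries of the genotypes were thus 4.607% and 4.651% apart in name only, the latter being 4 of 86 sequences. In the sorted LN cells the share was lower in every Themis-/- library (5.08% and 4.75% in Themis+/+, 4.60% and 4.65% in Themis-/-). The difference between thymus and LN was not tested, and the thymic difference was 2.51 with TRAV9N-3 alone, 2.35 with TRAV9N-3 and TRAV9D-3, 0.172 without sequences seen in 1 read and -0.624 with the reads as weights.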

How the results depend on the processing

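With 2 libraries a genotype no exact test could pass 0.05, so a p above it says nothing about stability. Leaving out each library in turn moved the difference in TRAV9N-3 share from -27.1 to 21.9 percentage points, in the 10 largest clones from -16.4 to 12.5, in the log2 ratio of effective clone numbers from -1.46 to 1.99 and in hydropathicity from -1.05 to 0.869, each turning in sign without Themis+/+ library 1 or Themis-/- library 2 (hydropathicity: without Themis+/+ library 2, 0.869, or Themis-/- library 1, 0.568). The others kept their sign: V-proximal J 1.01 to 2.89, N additions 0.229 to 0.847, no N additions -14.2 to -2.60, length -0.389 to -0.00256, Met, Ile or Leu -9.45 to -2.04, and Asp or Glu 0.345 to 1.38. Hydropathicity was also reversed with TRAV9N-3 alone (0.193), with TRAV9D-3 added (0.355; chosen after seeing the data) and per residue over all lengths (0.0302). Weighting by reads turned length to 0.633 and Asp or Glu to -0.624, and the germline match turned N additions to -0.0418.

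edgeR called 0 V segments, 0 J segments by reads and 0 by sequences in each alternative, except that without Themis+/+ library 2 it called 1 J segment by reads (0 to 1 over the libraries left out), TRAJ47. Where an arm had 1 library it was taken to vary like the other arm. Signs of small log2 fold changes turned in 30 of 224 alternatives of named segments. DESeq2 gave TRAV9-4 0.40, TRAV9D-4 0.027, TRAV9N-4 0.28, TRAJ31 -0.027 and TRAJ4 -0.22. Without TMM, TRAV9-4 was 0.15, TRAV9N-4 0.16, TRAJ31 -0.10 and TRAJ4 -0.30. Without the filter TRAJ31 was -0.20 and TRAJ4 -0.38, with all 8 sorted libraries TRAJ4 was -0.39, and with TRAV9N-3 and TRAV9D-3 merged TRAV9-4 was 0.14. With TRAV9N-3 alone TRAJ31 was -1.08 and TRAJ37 by sequences 0.58, and with TRAV9D-3 added -1.05 and 0.54. Leaving out each library in turn gave TRAV9-4 -14.53 (Themis-/- left with 0 reads, so set by the prior count) to 2.60, TRAV9-2 -0.15 to 1.73, TRAV9D-3 -0.79 to 0.15, TRAV9D-4 -1.44 to 0.44, TRAV9N-3 -1.19 to 0.015, TRAV9N-4 -0.68 to 0.91, TRAJ31 -1.58 to 2.15 and TRAJ4 -0.27 to 0.25. The cause of these turns was not tested.

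Same-numbered libraries deviated together (correlation 0.605 over 7 V and 0.232 over 41 J segments), but there are only 2 pairs and no label explains the number, so they were not treated as paired; whether the number marks an experiment is not known. With the replicate number as a block edgeR called 0 V segments, 0 J segments by reads and 0 by sequences; for the measures, exact sign flips over 2 numbers gave differences equal to the unpaired ones, except a log2 ratio of 0.32 for the effective number of clones.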

Other observations

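The split by library number went with the V segment and the clone size at once. In both libraries 2, TRAV9-4 sequences (43 in Themis+/+, 104 in Themis-/-) had a V-proximal J in 16.3% and 21.2%, Ala at position 5 in 60.5% and 44.2%, and median clone sizes of 101 and 74.5 reads, and they were absent or 1 clone in libraries 1. The sorted LN libraries had effective clone numbers of 839 and 347 in Themis+/+ and 860 and 389 in Themis-/- (libraries 1 and 2), the reverse order of the thymic ones. No explanation was tested.

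MiXCR separated TRAV9N-3 from TRAV9D-3 partly by the CDR3. Over the 4 libraries, base 13 of the CDR3 was A in 317 of 381 sequences with TRAV9N-3 as sole best hit, in 73 of 312 with both as equal best hits and in 20 of 94 with TRAV9D-3 alone, and Met was at position 5 in 188, 1 and 6 of them. The 2 segments have the same annotated bases there, so position 5 residues of either segment on its own depend on this call.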
